A study of Mus musculus with 10 samples.

Results

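Potassium channel genes were followed in whole oviducts of mice with and without the progesterone receptor. The set holds every gene on the array whose symbol begins with Kcn, apart from Kcnj8 and Kcnj11, the pore genes of the ATP-sensitive channel. Membership rests on the name alone, and 90 of the 19938 named genes tested belong to it. By subfamily, 15 are voltage-gated pore genes of the Kcna, Kcnb, Kcnc and Kcnd groups, 7 are Kcnh, 13 Kcnj, 14 Kcnk, 11 Kcnm, Kcnn or Kcnt and 3 Kcnq genes. The other 27 are mostly auxiliary or modifying subunits, with 3 non-coding opposite-strand loci among them.

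PRKO animals carried a lacZ insertion in both copies of Pgr, the progesterone receptor gene, which disrupts both receptor isoforms, and they were compared with heterozygous PR+/- animals, which carry 1 such copy and are fertile. All animals were 21 to 23 days old and prepubertal, and all received 5 IU of equine chorionic gonadotropin (eCG), which drives follicle growth, and 44 to 47 h later 5 IU of hCG, the human hormone given to set off ovulation. Tissue was collected 8 h after that injection, and each array read the pooled oviducts of 3 animals, giving 5 PRKO and 5 PR+/- arrays. The receptor is lost in every tissue of PRKO animals, ovary included, no wild-type or untreated group was compared, and a pool hides the spread between animals.

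Potassium channels let potassium leave the cell, which holds the membrane at negative voltage and ends electrical excitation. In smooth muscle of the oviduct wall they limit calcium entry and so contraction. In the epithelium they recycle potassium at the basolateral membrane and keep up the electrical force for chloride and fluid secretion. A channel is built from pore subunits that often assemble with auxiliary subunits, which set how many channels reach the membrane and how fast they open and close.

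Values are log2 signals, and a difference is PRKO minus PR+/- on that scale. Pgr itself lay between 6.31 and 6.39 on PRKO arrays and between 7.27 and 7.55 on PR+/- arrays. The multiciliated cell factor Foxj1 (6.87 to 7.29 in PRKO, 7.07 to 7.30 in PR+/-) and the secretory cell factor Pax8 (8.17 to 8.66 in PRKO, 8.45 to 8.58 in PR+/-) were measured on every array. PRKO arrays had a narrower spread of signals, with interquartile ranges of 3.13 to 3.415 against 3.374 to 3.484 in PR+/-. PRKO replicate 3 and PR+/- replicate 4 stood apart in Cyp11a1, the first enzyme of steroid synthesis and an ovarian transcript, at 7.10 and 7.04, while it lay between 3.05 and 4.68 on the other 8 arrays. In tissue pools, fewer cells of a type and less RNA per cell cannot be told apart.

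Without the progesterone receptor, 8 potassium channel genes fell and none rose. The deepest falls were those of Kcnip2 and Kcnd3, an auxiliary subunit and the pore of the transient A-type potassium channel. Kcnip3, Kcnma1, Kcne3, Kcnh1, Kcnk1 and Kcnf1 fell by less, between 1.31-fold and 1.36-fold. The test was limma with Benjamini-Hochberg adjustment over all 19938 genes at an adjusted p under 0.05. The 8 genes that fell are 8.89% of the 90, where 3.87% of all genes fell. No member rose, where 1.09% of all genes did, and 4.96% of all genes passed in either direction. At an unadjusted p under 0.05, 11 members were lower and 8 higher, together 21.1% of the set, where 21.1% of all genes passed (11.1% lower and 10.1% higher). The median log2 difference was 0.03 over the members and 0.03 over all genes. The count that fell was 5 without PRKO replicate 3, 5 without PR+/- replicate 3, 5 without PRKO replicate 3 and PR+/- replicate 4 together, and 2 when the fit was adjusted for the arrays' interquartile ranges (the range-adjusted fit). Without PRKO replicate 4, 2 members rose.

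**Figure D1:**
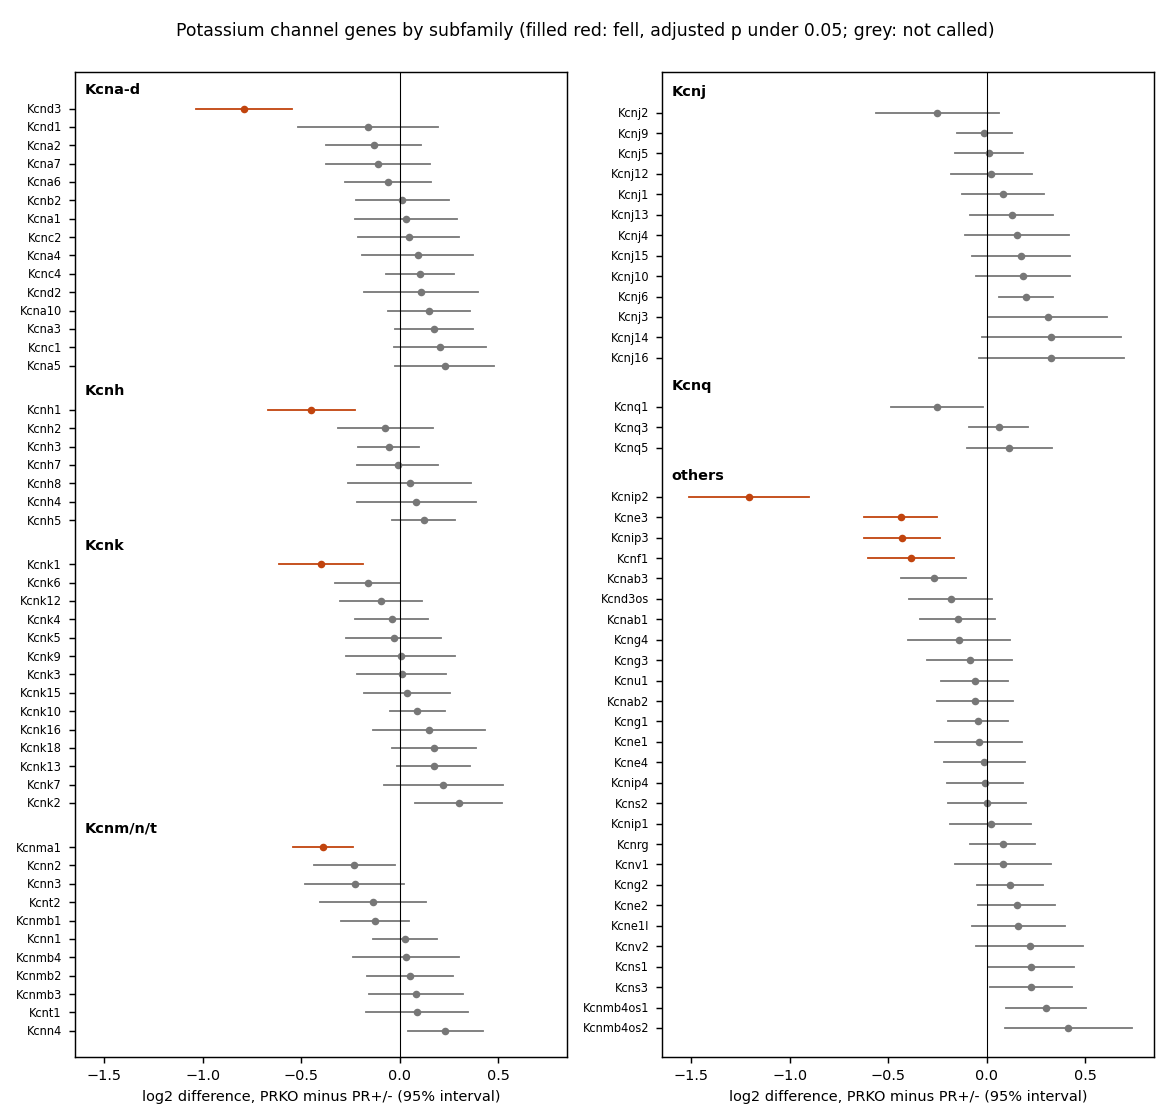
Log2 difference, PRKO minus PR+/-, of all 90 potassium channel genes (horizontal axis, points with 95% intervals), listed by subfamily; red marks the 8 genes that fell at an adjusted p under 0.05 and grey the other 82. Kcnip2, at -1.21, and Kcnd3, at -0.79, stand to the left of the rest, and the highest point is Kcnmb4os2 at 0.41.

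The promoters of Kcnd3 and Kcnip3 are shown as examples, as these genes encode partners in the A-type channel and both fell. Kcnip2, a further partner and the member that fell most, is not shown. Each window is the 250 bases before an annotated start in RefSeq on GRCm38.p6. That of Kcnd3 is chr3:105451640-105451889 on the plus strand, and that of Kcnip3 is chr2:127522095-127522344 on the minus strand, the outermost of the 3 starts listed for the gene. Capitals would mark a motif searched, and neither window held one, although another listed promoter of Kcnip3 held the GC box. A listed promoter of Kcnip2 held the GC box too, so these windows do not stand for all A-type channel genes that fell.
Kcnd3: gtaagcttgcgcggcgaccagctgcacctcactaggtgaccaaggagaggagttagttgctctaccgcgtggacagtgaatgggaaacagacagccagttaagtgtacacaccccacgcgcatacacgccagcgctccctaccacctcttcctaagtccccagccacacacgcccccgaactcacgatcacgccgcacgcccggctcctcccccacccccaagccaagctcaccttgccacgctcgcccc
Kcnip3: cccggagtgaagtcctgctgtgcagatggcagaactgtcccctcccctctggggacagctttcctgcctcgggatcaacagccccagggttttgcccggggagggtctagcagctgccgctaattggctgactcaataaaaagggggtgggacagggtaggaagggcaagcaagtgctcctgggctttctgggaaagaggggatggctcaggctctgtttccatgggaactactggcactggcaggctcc
The motifs, searched on both strands, were the palindromic element of the progesterone and glucocorticoid receptors (GNACA, any 3 bases, then TGTNC), its core TGTTCT, which can overlap it, the CArG box bound by serum response factor in muscle genes, and the GC box GGGCGG. The palindrome was found in 0.387% of all 32851 listed promoters, the core in 16.1%, the CArG box in 1.47% and the GC box in 32.7%. Of 94 promoters listed for 69 of the 90 members, 1 held the palindrome, 14 the core, 0 the CArG box and 42 the GC box. None of the 11 promoters listed for the 8 genes that fell held the palindrome, the core or the CArG box, and 5 held the GC box. Absence from this window says only that these letters are not in it.

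The A-type channel opens briefly on depolarisation and slows the return to firing threshold. In the form followed here its pore is made by Kcnd genes and its calcium-binding KChIP subunits by Kcnip genes. Dpp6 and Dpp10 encode further subunits that speed its gating. Kcnd3 measured 6.41, 6.83, 6.78, 7.01 and 6.43 in PRKO replicates 1 to 5, against 7.49, 7.42, 7.58, 7.33 and 7.59 in PR+/- replicates 1 to 5. Every PRKO array was below every PR+/- array, and PRKO replicates 1 and 5 were the lowest. The log2 difference was -0.79 ± 0.11 (SE, n = 5 each), a 1.73-fold lower signal (limma adjusted p = 7.28e-04). The other pore genes of the group gave log2 differences of -0.16 for Kcnd1 and 0.11 for Kcnd2 and did not pass. Kcnd3os, a non-coding locus on the strand opposite Kcnd3, had a log2 difference of -0.18 (adjusted p = 0.299).

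Kcnip2, the KChIP subunit best known from heart muscle, measured 4.51, 4.89, 4.56, 4.50 and 4.62 in PRKO replicates 1 to 5, against 6.14, 5.79, 5.43, 5.56 and 6.21 in PR+/- replicates 1 to 5. The groups were separate. Here the wider spread was in PR+/- (SD 0.344) and not in PRKO (SD 0.163). The log2 difference was -1.21 ± 0.14 (SE, n = 5 each), a 2.31-fold lower signal (limma adjusted p = 1.36e-04). Kcnip3, which encodes a KChIP that also acts as the calcium-sensitive transcriptional repressor DREAM, measured 5.11, 5.53, 5.28, 5.20 and 5.32 in PRKO and 5.74, 5.90, 5.73, 5.56 and 5.67 in PR+/-. The groups did not overlap, although PRKO replicate 2 came close to PR+/- replicate 4. It fell by 0.43 ± 0.090 (1.35-fold lower, adjusted p = 0.0121).

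The remaining members of this complex did not pass. Kcnip1 and Kcnip4 had log2 differences of 0.02 and -0.01, Dpp6 one of -0.01 and Dpp10 one of 0.14. Kcnd3 and Kcnip2 were also set against each other on the same array. The log2 difference of Kcnd3 minus Kcnip2 was 2.07 ± 0.288 in PRKO and 1.65 ± 0.327 in PR+/- (SD, n = 5 each), which does not pass a two-sided exact permutation test (p = 0.0714, adjusted p = 0.107 over 3 pairs chosen after the values were seen). The unadjusted permutation p was 0.0317 after quantile normalization, 0.0397 after cyclic loess normalization and 0.0159 without PR+/- replicate 3. These are only some of the alternatives run for this pair and are not adjusted for their number, so no conclusion is drawn from them. In the range-adjusted fit Kcnip2 and Kcnd3 kept their calls (log2 -1.14 and -0.61, adjusted p 0.0107 and 0.0483), while Kcnip3 did not (-0.35, adjusted p = 0.214), and without PRKO replicates 1 and 5 the adjusted p of Kcnip3 was 0.0549.

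**Figure D2:**
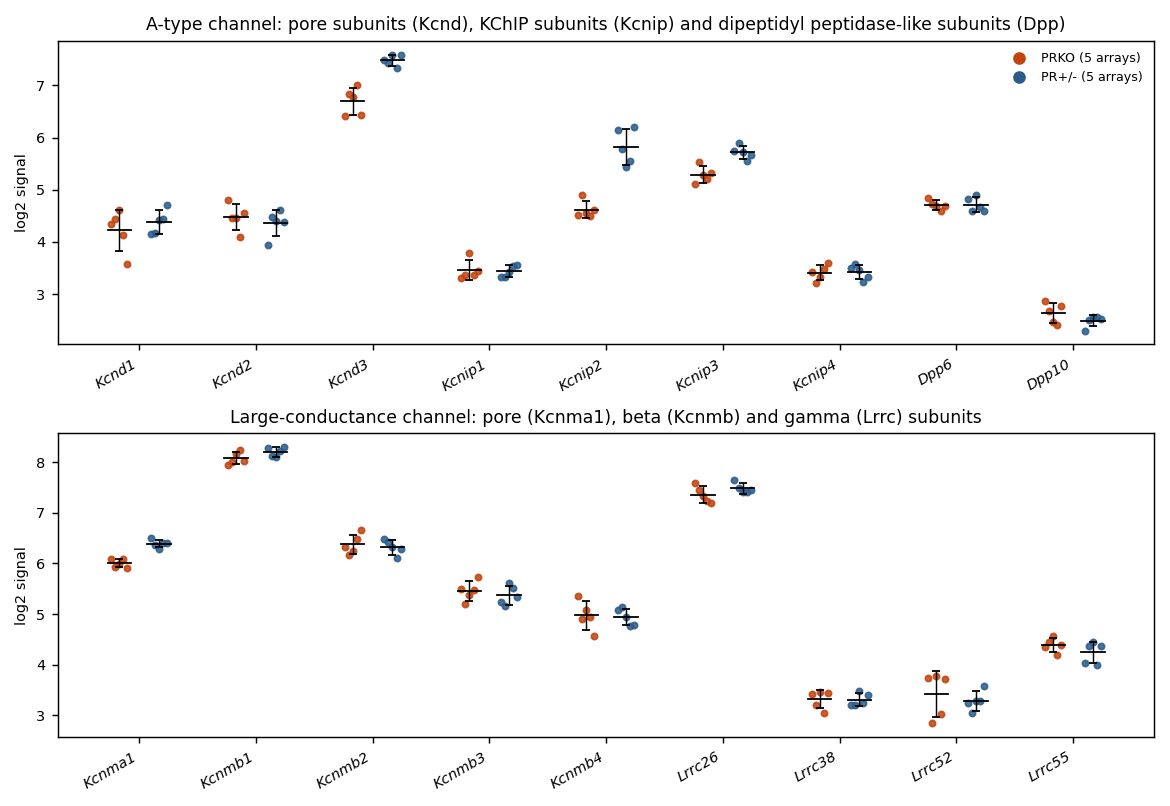
Log2 signal on every array for subunits of the A-type channel (top) and of the large-conductance calcium-activated channel (bottom), PRKO left and PR+/- right for each gene, with means and SD bars over 5 arrays; levels of different genes come from different probe sets and are not comparable. The genotypes separate for Kcnd3, Kcnip2 and Kcnip3 in the top panel and for Kcnma1 in the bottom panel.

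The other voltage-gated pore genes showed small differences. These channels repolarise the membrane after excitation. Among the 15 Kcna, Kcnb, Kcnc and Kcnd genes, 1 fell, 14 did not pass and the median log2 difference was 0.05. The 8 Kcna genes spanned -0.13 for Kcna2 to 0.23 for Kcna5, a delayed rectifier of vascular muscle whose adjusted p was 0.277. Kcna5 lay between 3.92 and 4.47 in PRKO and between 3.72 and 4.16 in PR+/-, so the groups overlapped. Kcnb2 had a log2 difference of 0.01, and the 3 Kcnc genes had 0.05 to 0.20. The second probe set of Kcna2 gave -0.09.

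Silent pore subunits and cytoplasmic beta subunits modify these channels. Kcnf1, which forms no channel alone and alters the channels of other pore subunits, measured 5.69, 5.92, 5.51, 5.41 and 5.73 in PRKO and 6.22, 5.95, 6.04, 6.12 and 5.86 in PR+/-. It was the only gene of the 8 whose groups overlapped, because PRKO replicate 2 was above PR+/- replicate 5. It fell by 0.38 ± 0.10 (1.31-fold lower, limma adjusted p = 0.0452). The call was lost in 15 of 23 alternatives, more than for any other of the 8, among them the removal of any 1 array other than PR+/- replicate 5 or PRKO replicate 2, with adjusted p of 0.0597 to 0.122 in those removals. Kcnf1 and the other 9 silent subunit genes, of the Kcng, Kcns and Kcnv groups, had differences of -0.38 to 0.23 with a median of 0.04.

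All 3 Kcnab genes, which encode the beta subunits, were lower in PRKO without passing in the fit reported here. Kcnab3 measured 3.78 to 4.15 in PRKO and 4.13 to 4.26 in PR+/-, and overlapped only through PRKO replicate 1. Its log2 difference was -0.27 ± 0.077 (adjusted p = 0.0609), which is the smallest adjusted p among the 82 members not called. Kcnab3 did pass in 6 alternatives, with log2 differences of -0.37 to -0.28 and adjusted p of 0.011 to 0.0484: after quantile normalization, cyclic loess normalization or median centring, with array weights, without PRKO replicate 1 and without PRKO replicates 1 and 5. It is outside the naming rule and was chosen after its values were seen. Kcnab1 had -0.15 and Kcnab2 -0.06.

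Kcnh genes encode the EAG, ERG and ELK channels. Kcnh1, the ether-à-go-go pore gene, measured 5.13, 5.29, 4.93, 4.89 and 4.72 in PRKO and 5.34, 5.37, 5.61, 5.40 and 5.48 in PR+/-. The groups were separate, with PRKO replicate 2 closest to PR+/-. It fell by 0.45 ± 0.10 (SE, n = 5 each, 1.36-fold lower, limma adjusted p = 0.0220). The call was lost in 7 of 22 alternatives, at adjusted p of 0.0628, 0.0545 and 0.0520 without PR+/- replicate 3, PR+/- replicate 5 and PRKO replicate 3, and in the range-adjusted fit the difference was -0.28 (adjusted p = 0.368). Kcnh2, the ERG pore gene that acts in uterine and gut muscle, had -0.07, with PRKO arrays at 5.94 to 6.61 on either side of PR+/- arrays at 6.18 to 6.36. The other 5 Kcnh genes had -0.055 to 0.12.

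Kcnq pores open slowly at low voltages, and Kcne genes encode small membrane subunits that change how they gate. In secretory epithelia the subunit made from Kcne3 holds the Kcnq1 channel open at rest. Kcne3 measured 9.45, 9.49, 9.42, 9.53 and 9.09 in PRKO and 9.86, 9.89, 9.77, 9.83 and 9.82 in PR+/-. The PR+/- arrays were close together (SD 0.043), all PRKO arrays were below them, and PRKO replicate 5 was lowest. It fell by 0.44 ± 0.086 (1.35-fold lower, adjusted p = 0.00864), and in the range-adjusted fit the difference was -0.25 (adjusted p = 0.238).

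Kcnq1 measured 7.13, 7.25, 6.78, 6.82 and 6.61 in PRKO and 7.12, 7.19, 7.18, 7.15 and 7.23 in PR+/-. PRKO replicates 3 to 5 were below all PR+/- arrays and replicate 2 above them, and the difference of -0.25 ± 0.11 did not pass (adjusted p = 0.202). The within-array difference of Kcne3 minus Kcnq1 was 2.47 ± 0.201 in PRKO and 2.66 ± 0.066 in PR+/- (SD, n = 5 each, exact permutation p = 0.119, adjusted p = 0.119 over 3 pairs), and p was 0.0476 without PRKO replicate 4. That removal was among several alternatives run for the pair, and its p was not adjusted for their number. Kcnq3 and Kcnq5 had 0.06 and 0.11, and Kcne1, Kcne1l, Kcne2 and Kcne4 had -0.04, 0.16, 0.15 and -0.01.

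Calcium-activated channels couple a rise in calcium to hyperpolarisation. Kcnma1 encodes the pore of the large-conductance channel, which brakes contraction in smooth muscle and is also present in secretory epithelium. It measured 6.09, 5.94, 5.99, 6.08 and 5.91 in PRKO and 6.50, 6.37, 6.29, 6.41 and 6.40 in PR+/-. The groups were separate and of like spread (SD 0.082 in PRKO, 0.076 in PR+/-). It fell by 0.39 ± 0.071 (SE, n = 5 each, 1.31-fold lower, limma adjusted p = 0.00527). A second probe set of Kcnma1, with a mean signal of 3.45, had a log2 difference of -0.04 ± 0.11. With the mean of both probe sets the difference was -0.22 (adjusted p = 0.117), and in the range-adjusted fit it was -0.34 (adjusted p = 0.106).

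Kcnmb1, the beta subunit of smooth muscle that raises the calcium sensitivity of this channel, measured 7.95, 8.01, 8.17, 8.25 and 8.03 in PRKO and 8.29, 8.12, 8.10, 8.22 and 8.30 in PR+/-. The groups overlapped, and the difference of -0.12 had a 95% interval of -0.30 to 0.05. The within-array difference of Kcnma1 minus Kcnmb1 was -2.08 ± 0.129 in PRKO and -1.81 ± 0.056 in PR+/- (SD, n = 5 each). The genotypes differed by -0.26 (two-sided exact permutation p = 0.0159, adjusted p = 0.0476 over the 3 pairs). The pair was chosen after the values of both genes were seen, and these p-values do not account for that choice, so no conclusion is drawn from them. The difference did not pass with the mean of the Kcnma1 probe sets (-0.09, exact permutation p = 0.286) or without PRKO replicate 3 and PR+/- replicate 4 (-0.24, exact permutation p = 0.0571). The other beta subunit genes, Kcnmb2, Kcnmb3 and Kcnmb4, had 0.05, 0.08 and 0.03. The gamma subunit gene of epithelia, Lrrc26, had -0.13, with 7.19 to 7.60 in PRKO and 7.41 to 7.66 in PR+/-.

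Small- and intermediate-conductance channels did not pass in either direction in the fit reported here. Kcnn3, which relaxes uterine muscle when overexpressed in mice, measured 6.14, 5.67, 6.01, 5.95 and 6.01 in PRKO and 6.42, 5.88, 6.06, 6.11 and 6.44 in PR+/-, with a difference of -0.23 ± 0.12 (adjusted p = 0.280). Kcnn4, the intermediate-conductance channel of epithelia and leukocytes, measured 7.80, 7.70, 7.50, 7.38 and 7.46 in PRKO and 7.45, 7.36, 7.27, 7.21 and 7.38 in PR+/-. Only PRKO replicates 1, 2, 3 and 5 exceeded every PR+/- array, and the difference of 0.23 ± 0.090 did not pass (adjusted p = 0.154). Kcnn1 had 0.03 and Kcnn2 -0.23 (adjusted p = 0.188), and Kcnn2, chosen after its values were seen, passed after quantile normalization (-0.34, adjusted p = 0.0409). The sodium-activated channel genes Kcnt1 and Kcnt2 had 0.09 and -0.14.

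Kcnk genes encode the tandem-pore-domain leak channels that set resting voltage. Of 14, 1 fell and 13 did not pass, with a median of 0.02. Kcnk1, the TWIK leak channel gene, measured 10.07, 10, 9.68, 9.63 and 9.66 in PRKO and 10.26, 10.34, 10.17, 10.08 and 10.17 in PR+/-. PRKO replicates 1 and 2 lay just below the lowest PR+/- array and the other 3 well below it. It fell by 0.40 ± 0.099 (1.32-fold lower, limma adjusted p = 0.0323). The call was lost in 12 of 23 alternatives, with adjusted p of 0.0617 to 0.0940 when any 1 array other than PR+/- replicate 4 or PRKO replicates 1 or 2 was left out, and in the range-adjusted fit the difference was -0.27 (adjusted p = 0.402).

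Kcnk2, the stretch-activated TREK channel gene that is active in uterine muscle, was the leak channel with the largest difference in the other direction. It measured 5.92, 5.74, 5.59, 5.50 and 5.42 in PRKO and 5.48, 5.27, 5.30, 5.14 and 5.46 in PR+/-. PRKO replicate 5 lay within the span of PR+/-, and the difference of 0.30 ± 0.10 did not pass (adjusted p = 0.113, and 0.0724 to 0.292 over the alternatives). The acid-sensitive TASK channel gene Kcnk3 had 0.01, with a 95% interval of -0.22 to 0.24. The remaining Kcnk genes spanned -0.16 for Kcnk6 to 0.22 for Kcnk7.

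Inward rectifiers of the Kcnj group stabilise resting voltage and carry potassium across epithelia. None of the 13 passed, while 11 were higher in PRKO and the median difference was 0.15. All 13 had a mean signal below that of the median gene (5.68). Of the 9969 genes at or below that level, 7427 were higher in PRKO, with a median difference of 0.09. Kcnj2, the strong inward rectifier of muscle and endothelium, measured 5.00, 5.47, 4.51, 4.80 and 4.88 in PRKO and 5.10, 5.49, 5.12, 5.06 and 5.15 in PR+/-. Replicate 2 was the highest of both groups, and the difference of -0.25 ± 0.145 did not pass (adjusted p = 0.338). Kcnj16, a subunit of epithelial and glial channels, measured 4.94, 4.54, 4.46, 4.54 and 4.18 in PRKO and 3.61, 4.54, 4.54, 4.26 and 4.06 in PR+/-. The groups overlapped widely (0.33 ± 0.17, adjusted p = 0.289), and the difference was 0.18 without PR+/- replicate 1.

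Kcnj14 measured 4.89, 4.86, 4.57, 4.84 and 4.78 in PRKO and 4.53, 4.77, 4.90, 4.31 and 3.80 in PR+/-. PR+/- replicate 5 was the lowest and PR+/- replicate 3 the highest of all arrays, and the difference of 0.33 ± 0.16 (adjusted p = 0.271) became 0.16 without PR+/- replicate 5. Kcnj3, a pore gene of G protein-gated channels, had 0.31 ± 0.14 (adjusted p = 0.224), and 0.19 without PRKO replicate 3. Without PRKO replicate 4, which at 3.38 was below every PR+/- array (3.44 to 3.70), Kcnj3 passed with 0.44 (adjusted p = 0.0299). Kcnj6 was the only member with separate groups that was higher in PRKO, at 2.83 to 2.98 against 2.71 to 2.75 in PR+/- (0.20 ± 0.064, adjusted p = 0.0959). Its mean signal of 2.83 was the lowest of the 90 members and may lie near background. Kcnj6 is outside the naming rule and was chosen after its values were seen. Kcnj13, an epithelial potassium channel gene, had 0.125 and overlapped. In all, 7 members had all PRKO values below all PR+/- values and 1 had them above. The 8 are 8.89% of members, where the values of 7.2% of all genes do not overlap (5.06% lower and 2.15% higher in PRKO).

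**Figure D3:**
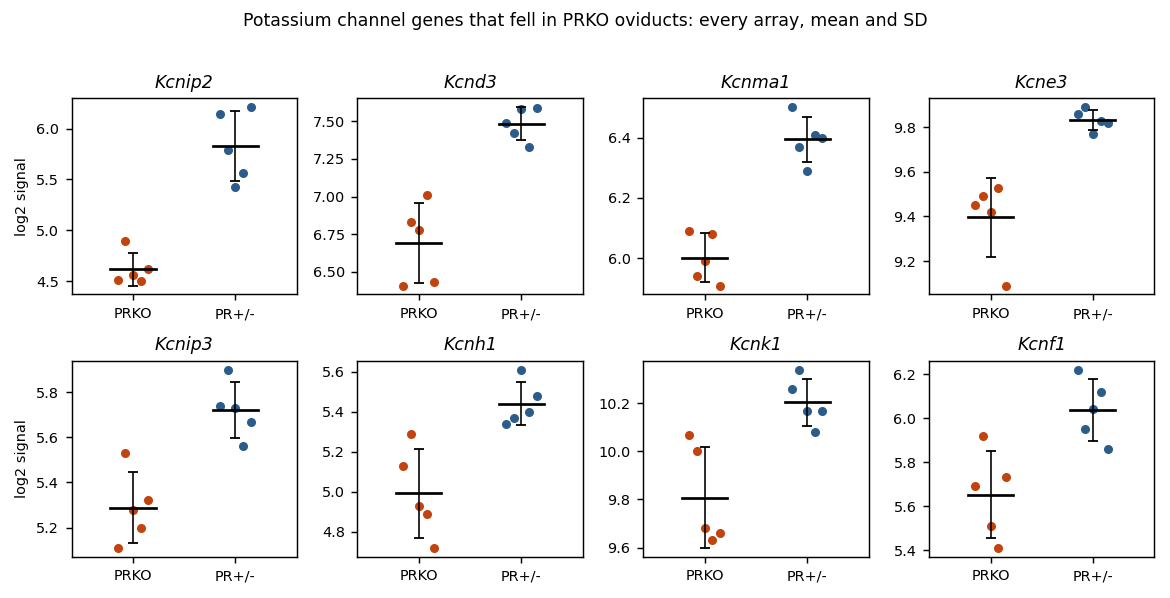
Log2 signal of the 8 potassium channel genes that fell, 1 panel per gene with its own vertical axis, PRKO left and PR+/- right, every array as a point with the mean and SD (n = 5 each). Kcnf1 is the gene whose groups overlap, and in Kcne3 PRKO replicate 5 lies apart at 9.09.

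Of the loci left, Kcnmb4os2 and Kcnmb4os1, non-coding transcripts opposite Kcnmb4, had the differences 0.41 ± 0.15 (adjusted p = 0.132) and 0.30 ± 0.095 (adjusted p = 0.0891). Kcnmb4os2 measured 5.00, 4.03, 4.58, 4.23 and 4.27 in PRKO and 3.96, 4.13, 3.91, 3.85 and 4.20 in PR+/-, so PRKO replicate 1 was the highest and replicate 2 lay within PR+/-, and the difference was 0.27 without PRKO replicate 1. Kcnmb4os1 passed without PRKO replicate 4. Kcnrg, a cytoplasmic regulator of channel assembly, had 0.08, and Kcnu1, the sperm channel gene, -0.06. Of the 82 members not called, 79 had point estimates within 1.25-fold in either direction. For 78 of the 82, the 95% interval lay within 1.5-fold.

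The direction of the members went with their signal. Of the 21 members whose mean over all arrays exceeded that of the median gene (5.68), 18 were lower in PRKO (85.7%), where 62.2% of all genes above that level were. Of the 69 at or below it, 19 were lower (27.5%), where 25.5% of all such genes were. Over the whole set 37 members were lower and 53 higher, but 45 were lower after centring on array medians, 50 after quantile normalization and 51 after cyclic loess normalization. PRKO pools also varied more, with the larger SD in PRKO for 67 of 90 members (74.4%) and for 74.7% of all genes.

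**Figure D4:**
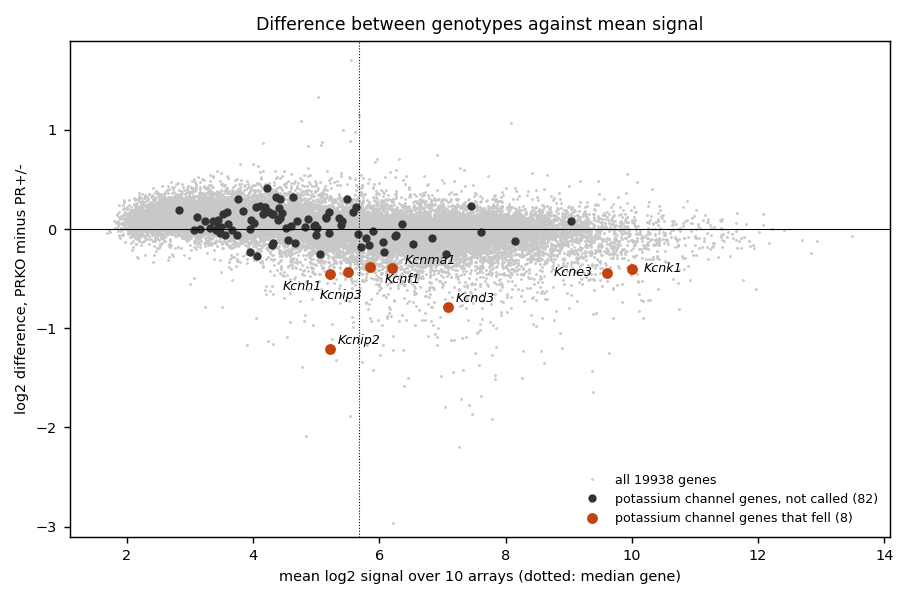
Log2 difference, PRKO minus PR+/- (vertical), against the mean log2 signal over 10 arrays (horizontal) for all 19938 genes (grey), the 82 potassium channel genes not called (black) and the 8 that fell (red); the dotted line is the median gene at 5.68. Most black points left of the line lie above 0, and Kcnip2 is the lowest of the members.

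Genes whose products work with these channels were read from a list of 19 partners and related cation channels, of which 17 were measured. Of these, 2 fell, none rose and 15 did not pass, with a median of 0.00, where 3.87% of all genes fell and 1.09% rose. Tmem38b, a potassium-permeable channel of the endoplasmic reticulum that supports calcium release, measured 6.78, 6.94, 6.90, 6.76 and 6.66 in PRKO and 7.53, 7.44, 7.49, 7.46 and 7.57 in PR+/-. The groups were far apart, and it fell by 0.69 ± 0.073 (1.61-fold lower, limma adjusted p = 5.54e-05). Nalcn, the sodium leak channel gene that depolarises resting cells, lay at 4.35 to 4.65 in PRKO and 4.69 to 5.03 in PR+/-. It fell by 0.34 ± 0.089 (adjusted p = 0.0423), a call lost in 12 of 22 alternatives, among them the removal of PRKO replicate 2, 3 or 4 or PR+/- replicate 1, 2, 3 or 5 (adjusted p 0.0647 to 0.114).

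Voltage-gated calcium channels, which potassium currents hold in check, were the second list, with 17 of 18 genes measured. Here too 2 fell, none rose and 15 did not pass, with a median of 0.04, beside the same 3.87% and 1.09% of all genes. Cacna1c, the L-type pore that brings calcium into smooth muscle, measured 6.31, 6.57, 6.58, 6.61 and 6.31 in PRKO and 6.80, 6.92, 6.99, 6.79 and 6.98 in PR+/-, and fell by 0.42 ± 0.086 (1.34-fold lower, adjusted p = 0.0105). PRKO replicates 1 and 5 were lowest, as they were for Kcnd3. Cacna1d, another L-type pore gene, lay at 5.74 to 5.99 in PRKO and 5.97 to 6.34 in PR+/- and fell by 0.37 ± 0.084 (adjusted p = 0.0197). Cacna1c lost its call in the range-adjusted fit (-0.33, adjusted p = 0.215). Cacna1d lost its call there (adjusted p = 0.175), without PR+/- replicate 1, 2 or 3 (0.0626, 0.0584 and 0.0523), and without PRKO replicates 1 and 5 together (0.0759). The 4 calls in these lists became 2 without PR+/- replicate 1, 2 or 3.

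Some markers of the cells that could hold these channels moved as well. The counts in each marker list stand beside 3.87% of all genes that fell and 1.09% that rose. All 10 smooth muscle markers fell, with a median of -0.82, and their summed signal (as log2) was 12.43 to 12.78 in PRKO and 13.27 to 13.43 in PR+/-. Of 9 neuron and glia markers measured, Syt1 rose and 8 did not pass, and their summed signal was 9.27 to 10.08 in PRKO and 8.92 to 9.23 in PR+/-, highest in PRKO replicate 1. S100b, the brightest of the 9, weighs most in that sum and did not pass (limma adjusted p = 0.104). It lay at 8.49 to 9.69 in PRKO, highest in replicate 1, and at 8.16 to 8.63 in PR+/-. Of 9 secretory cell markers, Cldn3 and Krt19 fell (11.87 to 12.34 in PRKO, 12.26 to 12.43 in PR+/-). Of 9 multiciliated markers, Cfap43 rose (11.79 to 12.00 in PRKO, 11.58 to 11.83 in PR+/-). Of 8 endothelial markers, Emcn and Pecam1 fell (9.04 to 9.32 in PRKO, 9.28 to 9.38 in PR+/-), and of 5 pericyte markers, Rgs5 fell (8.28 to 8.50 in PRKO, 8.44 to 8.63 in PR+/-). Among 4 markers of interstitial cells of Cajal, the pacemaker cells of muscle, Kit rose and Ano1 fell (10.29 to 10.58 in PRKO, 10.48 to 10.67 in PR+/-).

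Of 5 mesothelial markers, Msln fell (10.61 to 10.85 in PRKO, 10.76 to 10.99 in PR+/-), and of 6 skeletal muscle markers, Tnnc2 rose (7.17 to 7.50 in PRKO, 7.13 to 7.33 in PR+/-). None of 9 leukocyte markers passed (9.27 to 9.53 in PRKO, 9.16 to 9.34 in PR+/-), and none of 8 ovarian markers (7.06 to 8.94 in PRKO, 7.08 to 8.80 in PR+/-). No value in the data was below 1.091, so a marker value on an array does not by itself show that the marker was expressed. The smooth muscle markers moved the same way as the 8 potassium channel genes that fell. So did the called secretory, endothelial, pericyte and mesothelial markers and Ano1, while Syt1, Cfap43, Kit and Tnnc2 moved the other way. The part of any of these cell types in the 8 falls was not tested.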

How the data were processed

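The authors deposited log2 signals for the probe sets of an Affymetrix whole-transcript array, already summarised; the log2 scale was inferred from the range of 1.091 to 13.579, since no label states it, and folds hold only if it is so. Partek was used, per the submitters' processing notes; its version, background correction, normalization and probe summary: not given in the sources used here. Array medians were 5.198 to 5.278, and the fit reported here used the values without further normalization. The spreads were less alike, with interquartile ranges of 3.13 to 3.415 in PRKO and 3.374 to 3.484 in PR+/-. Quantile and cyclic loess normalization were run as alternatives. The number of arrays limits the precision (median 95% interval ± 0.216 over members, ± 0.202 over all genes). Replicates are separate pools, per the labels.

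Of 35557 rows, 21789 had 1 symbol in the platform annotation, 1621 several and 12147 none, and only the first kind was used. A gene's probe set with the highest mean over 10 arrays stood for it; 3 members (Kcna2, Kcnh8 and Kcnma1) had several. All 90 members were found in RefSeq's table for GRCm38.p6. No filter on dim signal was set, as the table has no background values.

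The test was limma 3.58.1 under R 4.3.3, with genotype as the term and variances moderated by eBayes (residual degrees of freedom 8, prior 6.076). Values with ± are SE unless SD is stated. On data simulated from the 19938 genes for the comparison of PRKO with PR+/-, it recovered 16% of genes changed 1.25-fold, 80% at 1.5-fold, and 100% at 2-fold and at 3-fold, with 13 false calls of 161. The simulation changed 50 genes per size and drew normal noise with the same SD in both genotypes. In the real data 988 genes were called, and the SD was larger in PRKO for 74.7% of genes. The simulated rates may therefore differ from those of the fit reported here.

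Named genes were every member called, the 5 uncalled members with the largest difference, 15 measured channels known in smooth muscle or epithelium, called genes of the partner and calcium channel lists, and Pgr as the check of the genotype labels, 28 in all. Members, lists and alternatives were chosen with earlier results of these data known. Alternatives covered normalization, dim-signal filters, probe-set choice, variance model, array weights, covariates, thresholds and left-out arrays.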

Additional observations from a re-analysis of the deposited data

Results flagged for a closer look

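Among the 28 named genes, 3 of 56 groups of 5 arrays had 1 array far from the other 4; about 1 group in 20 does so by chance. Kcne3 was 9.09 in PRKO replicate 5, where the other PRKO arrays lay at 9.42 to 9.53. Kcnj2 was 5.49 in PR+/- replicate 2, against 5.06 to 5.15 on the other PR+/- arrays. Cacna1d was 5.99 in PRKO replicate 3, with the other PRKO arrays at 5.74 to 5.81. The calls of Kcne3 and Cacna1d also held without those arrays.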

How the results depend on the processing

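Over 25 alternatives, the count of 8 potassium channel genes that fell became 5 without the dimmest 50% of genes (Kcnip2, Kcnip3 and Kcnh1 were then not tested), 5 with unmoderated variances, 2 with the interquartile range as a covariate, 5 without PRKO replicate 3 and PR+/- replicate 4 together, 4 at an adjusted p under 0.01, and 5 to 8 with 1 array left out. The count of 0 that rose became 1 with unmoderated variances (Kcnj6), 1 with array weights (Kcnmb4os1), 2 at an adjusted p under 0.1, and 0 to 2 with 1 array left out. All called genes numbered 988, but 322 with the covariate, 562 without PRKO replicate 3 and PR+/- replicate 4, 412 at 0.01, 1731 at 0.1 and 581 to 1165 with 1 array left out. The 4 called partner and calcium channel genes became 1 with the covariate, 1 at 0.01 and 2 to 4 with 1 array left out.

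After quantile normalization 8 members fell, of which 6 were among the original 8; Kcnf1 and Kcnk1 lost their calls and Kcnab3 and Kcnn2 gained them. Kcnip2 and Kcnd3 kept their calls in each of the 22 and 23 alternatives that tested them (log2 -1.31 to -1.11 and -0.87 to -0.61). The uncalled genes Kcna5 and Kcnk3 changed sign: Kcna5 to -0.0223 with the covariate, and Kcnk3, which was 0.01, to -0.019 with quantile normalization, -0.0205 with median centring, -0.046 with array weights, -0.022 with cyclic loess, -0.009 without PRKO replicates 1 and 5, and -0.0386 to 0.0909 with 1 array left out (below 0 without PRKO replicate 2, 4 or 5 or PR+/- replicate 1 or 5). The cause of these shifts was not tested. Deviations of same-numbered arrays correlated at 0.104, 0.125, -0.0126, 0.129 and 0.159 for replicates 1 to 5, above 0.1 for 4 of 5 numbers; as the labels state no pairing and replicate 3 fell short, the numbers were not taken as pairs. With them as a replicate block, 7 members fell, Kcnf1 losing its call (adjusted p = 0.0714), 3 partner and calcium channel genes were called, and 1042 of all genes. Cyclic loess normalization and the removal of PRKO replicates 1 and 5, as well as the within-array comparisons, were chosen after seeing the data. With few arrays and no background values, low signals may lie near background, where folds are understated.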
